A study of Mus musculus with 12 samples.

Results

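The E2F transcription factors and the retinoblastoma pocket proteins form the switch that controls entry into DNA replication. The members described here were 10 genes taken by name from the deposited counts, *E2f1* to *E2f8*, *Rb1* and *Rbl1*, of 32288 genes and transgenes in the table. All 10 were found once and all 10 passed the filter on low counts in each comparison. They were taken by name, with no threshold on any value.

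Bulk RNA-seq had been run on GFP-labelled cells sorted from the metaphysis of mouse femurs and tibias, the region below the growth plate where new bone is laid down. The sorted cells carried membrane GFP (mGFP) and lacked CD31, CD45 and TER119, the surface markers of endothelial, leukocyte and erythroid cells. Every mouse carried *Osx-CreERT2*, which expresses a tamoxifen-activated Cre recombinase in *Osx* (*Sp7*) expressing osteoblasts, and the *mTmG* reporter, and every mouse received tamoxifen. Juvenile (3 weeks) and adult (8 weeks) *Osx*+ osteoblasts came from *Osx-CreERT2*; *mTmG* mice, with 4 libraries per age, each made from 2 pooled male mice and collected 2 days after 3 daily tamoxifen doses. *c-Myc* osteoblasts (2 libraries) carried in addition *LSL-tTA*, a transactivator that Cre switches on, and *Col1a1*::*TetO–c-Myc*, the transgene that tTA drives. *c-Myc* + *R172H* osteoblasts (2 libraries) carried these alleles together with *Trp53-LSL-R172H*, a dominant-negative p53 mutant under the control of Cre.

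The *c-Myc* and *c-Myc* + *R172H* groups differed from the juvenile group in more than genotype. Their cells were collected 7 days after 2 daily tamoxifen doses, the mice were of both sexes, and the diaphysis was cut 5 mm rather than 2 mm from the growth plate. Their age is given as 3 weeks in the titles and as 5 weeks in the dissection protocol. The methods of the study give 3 weeks as the age at tamoxifen for juvenile induction, so these cells were collected after that age. The methods of the study also state that mice with the tTA-driven transgene, or pregnant females, received doxycycline or tetracycline in drinking water until some time before analysis. Genotype, age, tamoxifen schedule, these drugs and dissection therefore cannot be told apart in the comparisons with juvenile osteoblasts. *Xist*, transcribed from an inactivated X, reached 234 CPM in replicate 2 of *c-Myc* osteoblasts and 212 CPM in replicate 2 of *c-Myc* + *R172H* osteoblasts, and no more than 1.24 CPM in the other 10 libraries. CPM denotes counts scaled to a common library size with TMM factors over all 12 libraries, so that the values of one gene can be compared between libraries.

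In this pathway, unphosphorylated RB1 and its relatives RBL1 (p107) and RBL2 (p130) bind E2F proteins and hold their target genes silent. Cyclin D kinases and cyclin E kinases phosphorylate the pocket proteins, E2F1, E2F2 and E2F3 are released, and genes for DNA synthesis and mitosis are transcribed. E2F4 and E2F5 act mainly as repressors together with RBL1 and RBL2 in quiescent cells, within the DREAM complex. E2F6, E2F7 and E2F8 repress without binding pocket proteins, E2F6 through Polycomb proteins and E2F7 and E2F8 as late dampers of the E2F programme in S phase. Several E2F genes and *Rbl1* are themselves known E2F targets.

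Because E2F proteins regulate their own family through short elements beside the start site, the reference promoters of the members were searched for the canonical E2F element. RefSeq windows of 300 bases (GRCm38.p6, 250 bases before and 50 after an annotated start) were at hand for 7 members and numbered 9, since *E2f2* and *E2f3* each had a pair of starts. *E2f4*, *E2f5* and *Rb1* had no window. The letters searched on both strands were TTTCCCGC, TTTCGCGC, TTTGCCGC and TTTGGCGC. Of the 9 windows, 4 held a match, in *Rbl1*, *E2f2*, *E2f7* and *E2f3*, whereas 2.26% of all 32851 windows in the table held one. The 100 bases around each match are shown because they are the places where the family could act on itself, read 5′ to 3′ on the strand of the gene with the match in capitals.
*Rbl1*, chr2:157204499-157204598, minus strand: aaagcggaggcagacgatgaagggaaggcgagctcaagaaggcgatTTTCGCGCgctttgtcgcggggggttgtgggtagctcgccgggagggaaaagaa
*E2f2*, chr4:136172224-136172323, plus strand: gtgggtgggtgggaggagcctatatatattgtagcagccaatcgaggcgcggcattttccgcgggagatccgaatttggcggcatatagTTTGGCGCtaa
*E2f7*, chr10:110745195-110745294, plus strand: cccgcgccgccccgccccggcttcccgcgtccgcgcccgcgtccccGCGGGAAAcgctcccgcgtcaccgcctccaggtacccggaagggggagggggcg
*E2f3*, chr13:29986021-29986120, minus strand: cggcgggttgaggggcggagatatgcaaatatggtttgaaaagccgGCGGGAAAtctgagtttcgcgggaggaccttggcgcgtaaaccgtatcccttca
In *Rbl1* and *E2f2* the element lay on the strand of the gene, and in *E2f7* and *E2f3* it lay on the opposite strand, so that the capitals there show its complement. A match of letters is not evidence of binding, and the absence of a match in the windows of *E2f1*, *E2f6* and *E2f8* covers only these letters in these windows. The *E2f1* window was placed on a RefSeq start 466 bases inside the outermost annotated start of the gene, so the sequence around that outer start was not searched.

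In juvenile and adult *Osx*+ osteoblasts the whole family was expressed at a low level. Per kilobase of merged exons, *E2f4* had the highest level in both groups, 5.00 ± 1.05 CPM per kb (SD, n = 4) in juvenile and 4.77 ± 1.15 CPM per kb in adult osteoblasts, and it stood above the next gene in 4 of 4 libraries at each age. By its mean *Rb1* came second with 2.86 ± 0.418 and 2.68 ± 0.860 CPM per kb, ahead of *E2f3* in 3 of 4 libraries at each age. Its place was not settled in adult osteoblasts. In adult replicate 1 it was at 2.12 CPM per kb, below *E2f5* (2.73), *E2f1* (2.66) and *E2f3* (2.42). In adult replicate 4 it was at 1.88, below *E2f1* (2.06) and *E2f5* (1.91). The middle of the order could not be resolved, since *E2f3*, *E2f5* and *E2f1* changed places from library to library. *E2f7* was the lowest of the 10 at both ages, 0.227 ± 0.172 and 0.183 ± 0.129 CPM per kb. In the raw counts *E2f7* rested on 4 to 45 reads per juvenile or adult library, whereas *E2f4* rested on 77 to 174 and *Rb1* on 106 to 201.

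In *c-Myc* osteoblasts the levels per kilobase took another order. *E2f4* remained first at 17.4 ± 0.230 CPM per kb (SD, n = 2), followed by *E2f1* at 7.09 ± 0.0713 and *E2f3* at 6.16 ± 0.235. *Rb1* was seventh at 2.30 ± 0.00676 CPM per kb, below *E2f8* at 2.47 ± 0.0224, and *E2f7* was still the lowest at 1.51 ± 0.0357. In *c-Myc* + *R172H* osteoblasts *E2f4* was again first at 14.3 ± 0.169 CPM per kb, *Rb1* was eighth at 2.19 ± 0.138 and *E2f7* was last at 1.62 ± 0.146. *E2f3* and *E2f1* could not be ordered there, nor could *E2f2* and *E2f5*, because 1 of the 2 libraries gave each order. The same was true of *E2f5* and *E2f8* and of *Rb1* and *E2f6*.

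**Figure D1:**
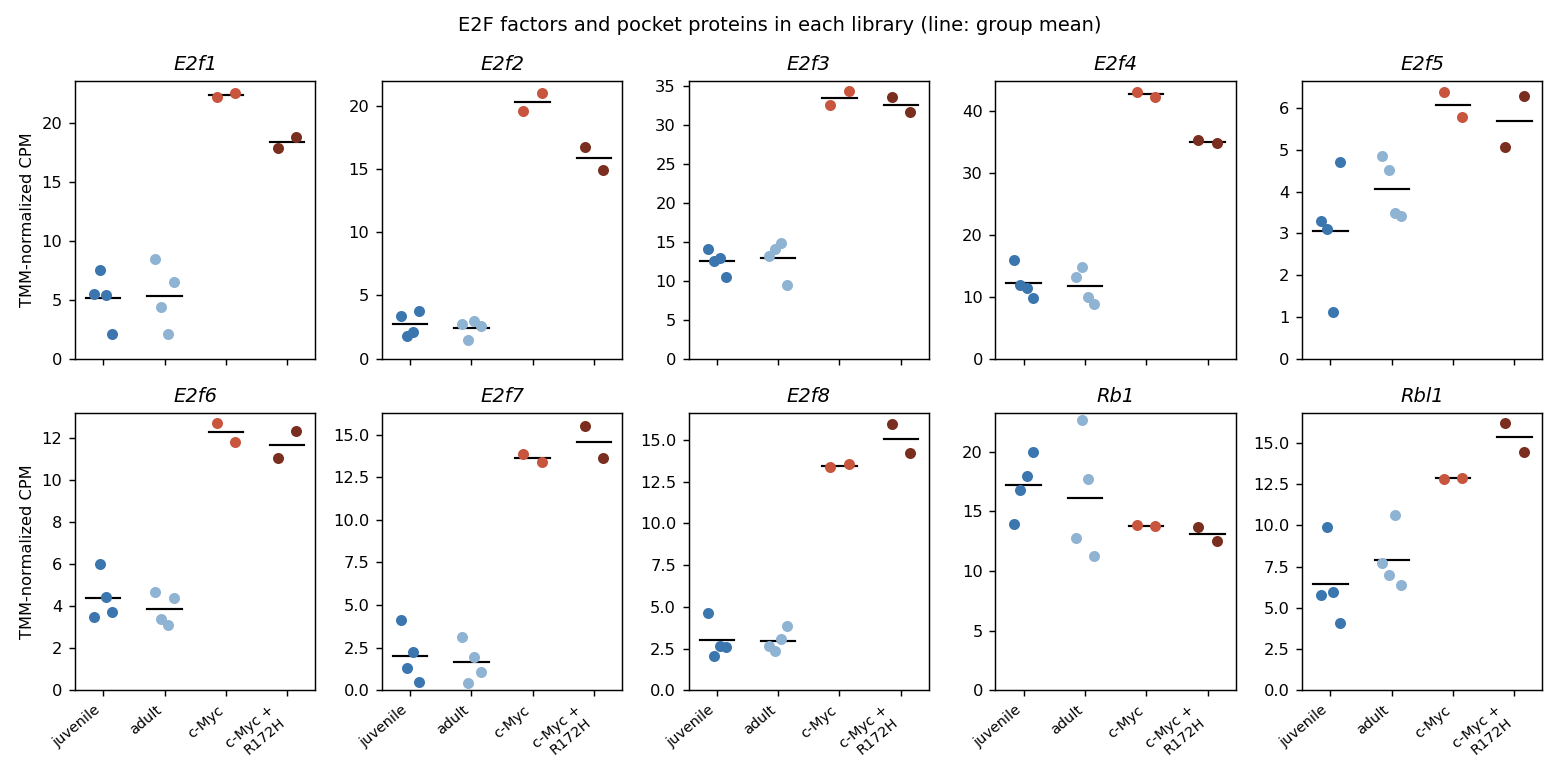
TMM-normalized CPM (linear axis from 0) of each of the 10 members in the 12 libraries, with a point per library and a line at the group mean. The 4 libraries with the transgene all lie above all 4 juvenile libraries for 9 members, and below them for *Rb1*, whose difference from juvenile osteoblasts turned sign when libraries were scaled by their totals.

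The first question was whether the family differed between *c-Myc* and juvenile osteoblasts. It did for most members. Tested with edgeR by quasi-likelihood, with p-values adjusted after Benjamini and Hochberg over 12588 genes, 8 of 10 members were higher in *c-Myc* osteoblasts at an adjusted p below 0.05 and 0 were lower, against 28.4% of all tested genes higher and 25% lower, or 53.4% in either direction. DESeq2 also called 8 higher and 0 lower. With a log2 fold change of at least 1 required in addition, 7 members remained, against 18.4% of all tested genes. The median log2 fold change of the 10 members was 1.61, and that of all tested genes was 0.037. The groups did not overlap for any member, 9 being higher and 1 (*Rb1*) lower under TMM scaling, as were 35.7% and 28.7% of all tested genes. Scaled by library totals, the calls over all genes were 6803 higher and 1115 lower, in place of 3577 higher and 3149 lower, and the median of all genes was 0.87.

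The activators *E2f1*, *E2f2* and *E2f3* all rose. *E2f1* (chr2:154559407-154569892, minus strand, mm10), which drives S phase entry and can also induce apoptosis, was at 5.48, 7.53, 5.42 and 2.11 CPM in the juvenile libraries and at 22.2 and 22.5 CPM in the *c-Myc* libraries. The lowest *c-Myc* library was thus well above the highest juvenile library, and the 2 *c-Myc* libraries lay close together while the juvenile libraries were spread. On the log2 scale the change was 2.08 ± 0.306 (SE, edgeR adjusted p = 9.89e-05), equal to 4.23-fold.

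*E2f2* (chr4:136172394-136196057, plus strand) had the largest fold change of the members. It was at 3.38, 1.75, 2.09 and 3.73 CPM in the juvenile libraries and at 19.6 and 21.0 CPM in the *c-Myc* libraries. The groups were far apart, and the counts behind them were 15 to 37 reads per juvenile and 370 to 429 reads per *c-Myc* library. This gave a log2 fold change of 2.86 ± 0.266 (SE, edgeR adjusted p = 2.11e-06), or 7.24-fold, higher than that of 96.5% of all tested genes. Its promoter window shown above held an E2F element, and its other window held none. Windows of *E2f3*, *E2f7* and *Rbl1*, whose changes were smaller, held one as well. Those of *E2f1*, *E2f6* and *E2f8*, which also rose, had no match, though the outer start of *E2f1* was not searched.

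*E2f3* (chr13:29906575-29986063, minus strand), whose locus gives rise to an activating and a shorter isoform that gene counts cannot separate, was at 14.1, 12.5, 12.9 and 10.4 CPM in the juvenile libraries and at 32.6 and 34.4 CPM in the *c-Myc* libraries. Here the juvenile libraries lay close together and none reached the *c-Myc* level. The log2 fold change was 1.40 ± 0.152 (SE, edgeR adjusted p = 8.16e-06). Of the activators it had the highest level per kb in juvenile osteoblasts and the smallest fold change.

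Of the canonical repressors, *E2f4* rose and *E2f5* did not pass the test. *E2f4* (chr8:105297663-105305370, plus strand), the main E2F of the DREAM complex, was at 15.9, 11.97, 11.4 and 9.81 CPM in the juvenile libraries and at 43.2 and 42.4 CPM in the *c-Myc* libraries. The groups were separated by more than the whole juvenile range. On the log2 scale the change was 1.77 ± 0.172 (SE, edgeR adjusted p = 3.06e-06).

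*E2f5* (chr3:14578641-14606309, plus strand) was at 3.29, 3.10, 1.11 and 4.72 CPM in the juvenile libraries and at 6.39 and 5.78 CPM in the *c-Myc* libraries. The *c-Myc* libraries were the higher ones, but juvenile replicate 3, with 8 reads, and juvenile replicate 4, with 38 reads, spanned a wide range. This gave a log2 fold change of 0.96 ± 0.417 (SE, edgeR adjusted p = 0.0696). Without juvenile replicate 4 the adjusted p was 0.0181 and the log2 fold change 1.21. Over the 13 alternative settings described at the end it was called in 4, with log2 fold changes from 0.70 to 1.79. The exons of *E2f5* overlap those of *1810022K09Rik* on the opposite strand, which had 2 to 91 reads per library, and the strand setting of the counting is not given in the sources used here.

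The repressors that act without pocket proteins rose together, 3 of 3. *E2f6* (chr12:16810963-16839742, plus strand), which works with the Polycomb complex PRC1.6 to silence germline genes, was at 3.47, 5.99, 4.45 and 3.73 CPM in the juvenile libraries and at 12.7 and 11.8 CPM in the *c-Myc* libraries. Every *c-Myc* library was above every juvenile one. The log2 fold change was 1.45 ± 0.255 (SE, edgeR adjusted p = 0.000398).

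*E2f7* (chr10:110745439-110787384, plus strand) and *E2f8* (chr7:48866429-48881596, minus strand) form homodimers and heterodimers that repress *E2f1* and other E2F targets late in S phase. *E2f7* was at 4.11, 1.34, 2.23 and 0.497 CPM in the juvenile libraries and at 13.8 and 13.4 CPM in the *c-Myc* libraries. It was the most variable member among juvenile libraries, where the highest value rested on 45 reads and the lowest on 4. Its log2 fold change was 2.66 ± 0.442 (SE, edgeR adjusted p = 0.000257), which had the widest SE of the 10.

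*E2f8* was at 4.66, 2.06, 2.64 and 2.61 CPM in the juvenile libraries and at 13.4 and 13.6 CPM in the *c-Myc* libraries. One juvenile library stood above the other 3, and all 4 were far below the *c-Myc* libraries. On the log2 scale the change was 2.12 ± 0.287 (SE, edgeR adjusted p = 5.00e-05). Juvenile replicate 1 was the highest juvenile library for *E2f7* and *E2f8* as well as for *E2f3* and *E2f4*. It also had the highest juvenile level of *Mki67*, a marker of cycling cells, at 44.5 CPM.

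Of the pocket proteins *Rbl1* rose and *Rb1* did not pass the test. *Rbl1* (chr2:157145893-157204534, minus strand), which encodes p107 and is a known E2F target, was at 5.75, 9.91, 5.98 and 4.10 CPM in the juvenile libraries and at 12.8 and 12.9 CPM in the *c-Myc* libraries. The gap was small beside that of the activators, since juvenile replicate 2 came within a few CPM of the *c-Myc* libraries. This gave a log2 fold change of 0.97 ± 0.282 (SE, edgeR adjusted p = 0.0117). With 1 *c-Myc* library fewer the change kept its size but not its call, at 0.98 (adjusted p = 0.0666) without replicate 1 and 0.97 (adjusted p = 0.0649) without replicate 2.

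*Rb1* (chr14:73183673-73325822, minus strand), the founding tumour suppressor of the pathway and a gene often lost in human osteosarcoma, was the only member that was not higher under TMM scaling. It was at 14.0, 16.8, 17.9 and 20.0 CPM in the juvenile libraries and at 13.8 and 13.8 CPM in the *c-Myc* libraries. The *c-Myc* libraries lay just under the lowest juvenile library. The log2 fold change was -0.33 ± 0.187 (SE, edgeR adjusted p = 0.154) under TMM scaling, and its sign turned under scaling by library totals, where it was 0.51 (adjusted p = 0.0331) while the median of all genes was 0.87. Relative to the median of all tested genes *Rb1* was at -0.37 with TMM and at -0.36 with library totals. The other 9 members were higher under TMM, RLE and library totals alike. The exons of *Rb1* overlap those of *Rcbtb2* (134 to 460 reads per library) and *Lpar6* (6 to 84 reads) on the opposite strand.

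**Figure D2:**
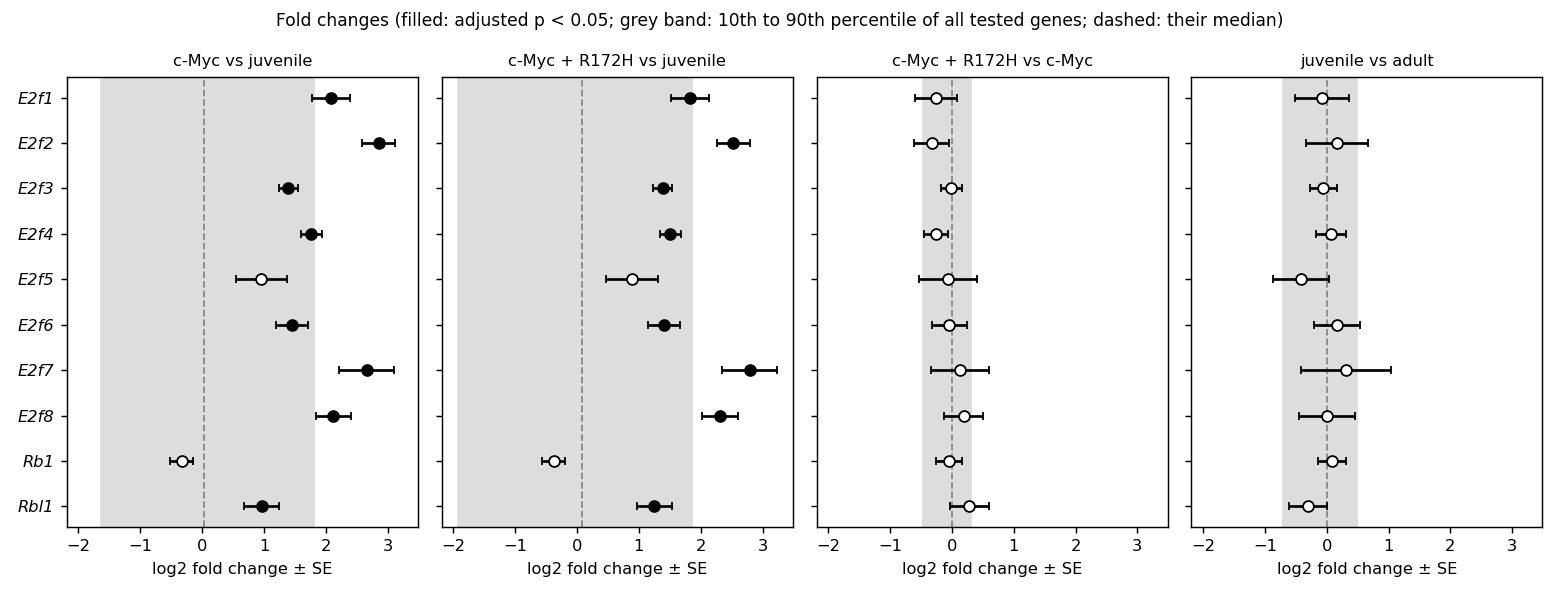
Log2 fold change ± SE (horizontal axis) of each member in the 4 comparisons, with filled points for an adjusted p below 0.05, a grey band from the 10th to the 90th percentile of all tested genes and a dashed line at their median. In both comparisons with juvenile osteoblasts 8 points are filled and *Rb1* lies left of the median, while in the other comparisons no point is filled.

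Ratios of reads within a library do not depend on the scaling between libraries, so the reads of each member were also divided by the reads of *Rb1* in the same library. Per read of *Rb1* there were 0.106 to 0.448 reads of *E2f1* in juvenile, 1.604 to 1.63 in *c-Myc* and 1.30 to 1.498 in *c-Myc* + *R172H* libraries. *E2f2* went from 0.104 to 0.242 in juvenile libraries to 1.42 to 1.52 in *c-Myc* and 1.19 to 1.22 in *c-Myc* + *R172H* libraries. *E2f7* went from 0.0248 to 0.294 to 0.971 to 1.00 and 1.09 to 1.13. For each of these genes the lowest value with the *c-Myc* transgene exceeded the highest juvenile and adult value.

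The same held for the remaining members except 1. *Rbl1* was at 0.205 to 0.589 reads per read of *Rb1* in juvenile, 0.308 to 0.603 in adult, 0.927 to 0.934 in *c-Myc* and 1.15 to 1.18 in *c-Myc* + *R172H* libraries. *E2f5* was at 0.0620 to 0.236 in juvenile and 0.420 to 0.462 in *c-Myc* libraries. It was the exception, since the highest adult library reached 0.381 and the lowest *c-Myc* + *R172H* library was at 0.370. These ratios show that the members and *Rb1* changed unequally, and they do not say which of the 2 changed.

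**Figure D3:**
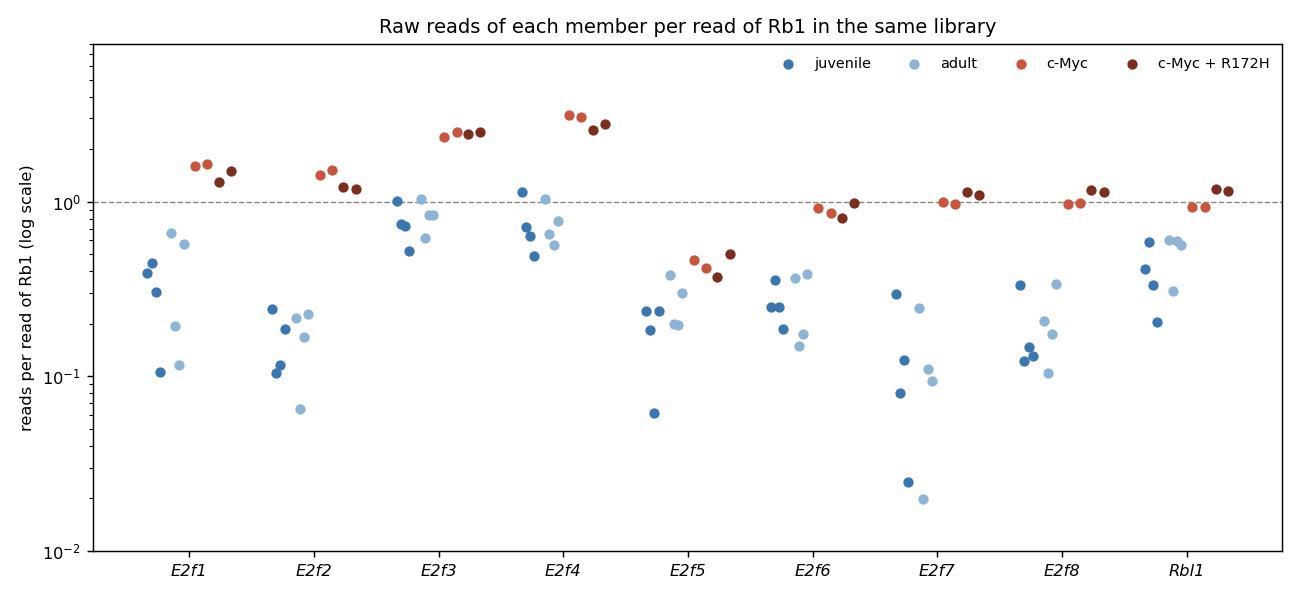
Raw reads of each member divided by the raw reads of *Rb1* in the same library (log axis), with a point per library coloured by group and a dashed line at equal reads. For *E2f1* the *c-Myc* libraries lie at 1.604 and 1.63 and the juvenile libraries at or below 0.448.

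The make-up of the E2F family was described by the share of each gene in the summed CPM per kb of the 8 E2F genes. The sum was 12.8 ± 1.92 CPM per kb (SD, n = 4) in juvenile, 13.0 ± 2.00 in adult (n = 4), 44.4 ± 0.0895 in *c-Myc* (n = 2) and 39.0 ± 0.193 in *c-Myc* + *R172H* libraries (n = 2). The activators together took 30.0 to 40.0% in juvenile, 30.8 to 37.99% in adult, 38.3 to 40.1% in *c-Myc* and 38.2 to 39.0% in *c-Myc* + *R172H* libraries. These ranges overlap between juvenile and *c-Myc* libraries, so the proportion of activators was not distinguishable even though their amount was.

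Within that proportion the members shifted. *E2f2* took 2.71 to 6.82% of the E2F sum in juvenile libraries and 9.02 to 9.69% in *c-Myc* libraries, which do not overlap. *E2f3* took 17.0 to 21.0% in juvenile and 13.5 to 14.3% in *c-Myc* libraries, again without overlap. *E2f4* kept the largest share in every group, 35.7 to 42.4% in juvenile and 39.0 to 39.6% in *c-Myc* libraries.

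*E2f7* and *E2f8* together took 3.98 to 8.59% in juvenile, 8.96 to 8.98% in *c-Myc* and 10.6 to 11.9% in *c-Myc* + *R172H* libraries. Their share was thus above the highest juvenile library in all 4 libraries with the transgene, by a small margin in *c-Myc* osteoblasts. These shares are descriptions, as exon lengths of the annotation stand in for the transcripts in use.

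**Figure D4:**
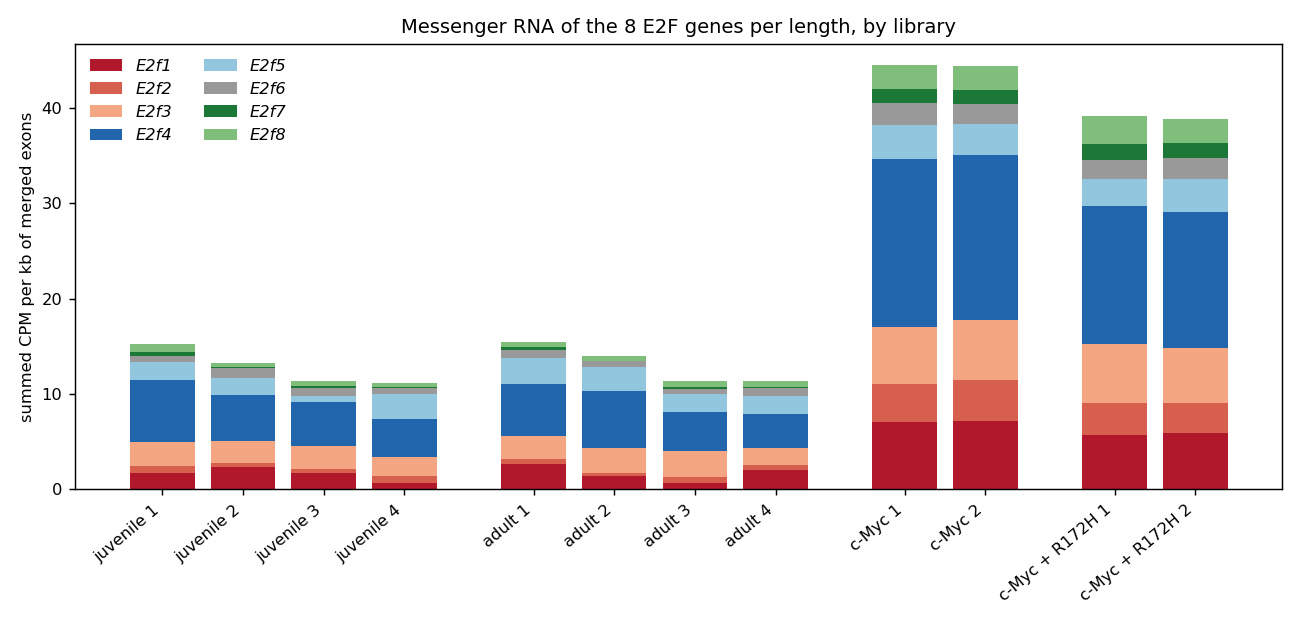
Summed CPM per kb of merged exons of the 8 E2F genes in each library (bars start at 0), coloured by gene. The bars of the 4 libraries with the transgene reach 38.9 to 44.5 CPM per kb and those of juvenile and adult libraries 11.2 to 15.4, with *E2f4* as the largest part of each.

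Adding the p53 mutant was compared next, *c-Myc* + *R172H* against *c-Myc* osteoblasts. With edgeR's quasi-likelihood test 0 of 10 members passed in either direction, against 0.469% of all tested genes (0.00794% higher and 0.461% lower), 0 members had an unadjusted p below 0.05, and DESeq2 also called 0. The adjusted p of every member was 1.00. The log2 fold changes ran from -0.33 to 0.28 with SE between 0.172 and 0.469, around a median of -0.041 where that of all tested genes was -0.0028. Differences of this size were not detectable with 2 libraries per group, in a fit that also took its spread from the 4 juvenile libraries. Every member had its widest relative spread in the juvenile group. For *E2f1* the SD was 1.01% of the mean in *c-Myc*, 3.71% in *c-Myc* + *R172H* and 43.7% in juvenile libraries.

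The values of the single libraries were as follows. *E2f1* was at 17.9 and 18.8 CPM in *c-Myc* + *R172H* libraries, below both *c-Myc* libraries, with a log2 fold change of -0.26 ± 0.340 (SE). *E2f2* was at 16.8 and 14.9 CPM, likewise below both, with -0.33 ± 0.283. *E2f4* was at 35.4 and 34.8 CPM, again below both, with -0.26 ± 0.194. *Rb1* was at 13.7 and 12.6 CPM, just below both, with -0.042 ± 0.211 under TMM and 0.17 under library totals.

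The other side held *E2f8*, at 15.9 and 14.2 CPM with a log2 fold change of 0.19 ± 0.312, and *Rbl1*, at 16.2 and 14.4 CPM with 0.28 ± 0.317, both above the *c-Myc* libraries. *E2f3* (33.6 and 31.6 CPM), *E2f5* (5.08 and 6.30 CPM), *E2f6* (11.03 and 12.3 CPM) and *E2f7* (15.5 and 13.7 CPM) overlapped with the *c-Myc* libraries. In all, 4 members were lower and 2 higher without overlap under TMM scaling, where 27.5% and 17.5% of all tested genes were. *Mki67* was at 165 and 169 CPM in *c-Myc* and at 197 and 186 CPM in *c-Myc* + *R172H* libraries, a log2 fold change of 0.23 ± 0.214 (SE, edgeR adjusted p = 1.00).

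Set against juvenile osteoblasts, which also served as the controls of the *c-Myc* comparison, *c-Myc* + *R172H* osteoblasts had 8 of 10 members higher and 0 lower by edgeR's quasi-likelihood test, against 30.4% of all tested genes higher and 26.3% lower, or 56.7% in either direction. DESeq2 called 8 higher and 0 lower. All 8 also had a log2 fold change of at least 1, as did 19.6% of all tested genes. The groups did not overlap for any member, 9 higher and *Rb1* lower under TMM scaling, as were 36.6% and 30.1% of all tested genes. The fold changes, all on the log2 scale with their SE and edgeR adjusted p, were largest for *E2f7*, 2.79 ± 0.440 (adjusted p = 0.000154), and *E2f2*, 2.53 ± 0.267 (adjusted p = 5.36e-06). *E2f8* was at 2.31 ± 0.286 (adjusted p = 2.03e-05) and *E2f1* at 1.83 ± 0.308 (adjusted p = 0.000264). *E2f7* thus led this comparison where *E2f2* led the other, but the difference between the 2 comparisons is the *c-Myc* + *R172H* against *c-Myc* contrast, in which neither gene passed.

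*E2f4* rose by 1.51 ± 0.173 (edgeR adjusted p = 1.05e-05), *E2f6* by 1.41 ± 0.255 (adjusted p = 0.000453) and *E2f3* by 1.39 ± 0.152 (adjusted p = 7.46e-06). *Rbl1* was higher by 1.25 ± 0.279 (edgeR adjusted p = 0.00212), a call that held when each *c-Myc* + *R172H* library was left out in turn. *E2f5* was at 0.89 ± 0.417 (adjusted p = 0.0865), and at 1.14 (adjusted p = 0.0229) without juvenile replicate 4. Over 13 alternative settings it was called in 4, at 0.63 to 1.93.

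*Rb1* was again the member on the other side, at -0.37 ± 0.187 (SE, edgeR adjusted p = 0.107), with both libraries of that group below all 4 juvenile libraries. Without juvenile replicate 1, the lowest juvenile library for this gene, it was at -0.46 (adjusted p = 0.0428). Scaled by library totals it was at 0.68 (adjusted p = 0.00636), where the median of all genes was 1.12, so that relative to this median it was at -0.43, and at -0.45 with TMM. The calls over all genes were 7668 higher and 1169 lower with library totals, in place of 3832 and 3311.

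Both groups with the transgene were compared as well without the libraries that expressed *Xist*, a setting chosen after seeing the data. With the single remaining library per group the spread is then taken from the juvenile libraries, so only log2 fold changes are given. *Rbl1* was at 0.96 in the *c-Myc* comparison. *E2f2* was then at 2.80 and 2.57 in the comparisons of *c-Myc* and of *c-Myc* + *R172H* osteoblasts with juvenile ones.

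The last question was whether the family differed between juvenile and adult *Osx*+ osteoblasts. By edgeR's quasi-likelihood test 0 of 10 members passed, against 5.12% of 11345 tested genes (1.89% higher and 3.23% lower in juvenile osteoblasts), 0 had an unadjusted p below 0.05, and DESeq2 called 0. The libraries of the ages overlapped for all 10 members, whereas 6.17% of all tested genes were higher and 6.75% lower without overlap. With library totals the calls over all genes were 53 higher and 793 lower in place of 214 and 367, and still 0 members passed, while *E2f2*, *E2f4*, *E2f6*, *E2f8* and *Rb1* turned from positive to negative values.

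The log2 fold changes of juvenile over adult ran from -0.41 to 0.31, with a median of 0.033 beside 0.00093 for all tested genes. *E2f1* was at 8.40, 4.40, 2.07 and 6.50 CPM in the adult libraries, as widely spread as in the juvenile ones, and its log2 fold change was -0.072 ± 0.437 (SE). *E2f2* was at 2.73, 1.47, 2.98 and 2.56 CPM in adult libraries and *E2f8* at 2.63, 2.37, 3.11 and 3.84 CPM. Both gave values near the juvenile ones.

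*Rb1* was at 12.8, 22.7, 17.7 and 11.3 CPM in the adult libraries, a range that enclosed the juvenile libraries, with a log2 fold change of 0.085 ± 0.229 (SE). *E2f5*, at 4.86, 4.52, 3.49 and 3.41 CPM in adult libraries, gave -0.41 ± 0.450, and *Rbl1*, at 7.70, 7.00, 10.6 and 6.40 CPM, gave -0.30 ± 0.313. *E2f7*, at 3.14, 0.452, 1.94 and 1.07 CPM, gave 0.31 ± 0.726. This was the widest SE of the members.

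*E2f3* (13.2, 14.1, 14.9 and 9.49 CPM), *E2f4* (13.3, 14.8, 9.96 and 8.74 CPM) and *E2f6* (4.66, 3.39, 3.11 and 4.37 CPM), given here for the adult libraries, had log2 fold changes of -0.053 ± 0.217, 0.064 ± 0.241 and 0.17 ± 0.370. *Mki67* did not pass between the ages either, at 0.097 ± 0.243 (edgeR adjusted p = 0.886).

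Around the members, a list of pathway genes was followed through the same fits. It was written from general knowledge, but with earlier results of these data known. E2F proteins bind DNA as dimers with a DP protein. *Tfdp1*, the main DP gene, was at 16.9, 23.4, 22.7 and 12.3 CPM in juvenile libraries and at 93.2 and 94.9 CPM in *c-Myc* libraries, a log2 fold change of 2.30 ± 0.184 (SE, edgeR adjusted p = 5.85e-07). *Tfdp2*, at 14.0, 19.3, 5.15 and 12.8 CPM against 11.1 and 13.6 CPM, gave -0.097 ± 0.354 (adjusted p = 0.835). *Rbl2*, the third pocket gene, at 22.01, 26.7, 22.3 and 28.4 CPM against 24.3 and 21.0 CPM, gave -0.15 ± 0.159 (adjusted p = 0.443). So 1 of these 3 was higher, beside 28.4% of all tested genes, with a median of -0.097 for the list. With library totals this median was 0.71, beside 0.87 for all tested genes.

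E2F4 and the pocket proteins form DREAM with the MuvB core, and *Mybl2* forms the activating counterpart with it. The list of core genes together with *Mybl2* had 4 of 6 genes higher in *c-Myc* osteoblasts and 0 lower. Its median was 0.83 on the log2 scale, beside 28.4% of all tested genes higher and a median of 0.037. The leading gene was *Mybl2*, 4.00 ± 0.195 (SE, edgeR adjusted p = 1.87e-08), from a mean of 1.81 CPM to 29.9 CPM. *Lin54* followed at 1.03 ± 0.203 (adjusted p = 0.000943). *Lin37* (0.028) and *Lin52* (-0.51) did not pass. In *c-Myc* + *R172H* osteoblasts the count against juvenile was also 4 of 6, beside 30.4% of all tested genes, led by *Mybl2* at 4.01 ± 0.195 and *Lin9* at 1.06 ± 0.299.

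Of the PRC1.6 partners of E2F6, 3 of 9 were higher in *c-Myc* osteoblasts and 0 lower, with a median of 0.29, a share of higher genes near the 28.4% of all tested genes. *Pcgf6*, the subunit that defines the complex, was at 1.88 ± 0.263 (SE, edgeR adjusted p = 6.53e-05) and *L3mbtl2* at 1.83 ± 0.164 (adjusted p = 1.53e-06). In *c-Myc* + *R172H* osteoblasts 4 of 9 were higher, beside 30.4% of all tested genes, with *Pcgf6* at 2.00 ± 0.262 and *L3mbtl2* at 1.75 ± 0.164. Scaled by library totals, 8 and 9 of the 9 were higher, where the median of all tested genes was 0.87 and 1.12. Calls of higher genes rose over all genes under this scaling as well, as given above. Of 8 germline genes known to be silenced by E2F6, 2 were tested in the comparisons with juvenile osteoblasts and 0 passed by edgeR or DESeq2, 1 having an unadjusted p below 0.05 in each by edgeR. With library totals 1 of the 2 was higher in each. *Tuba3b*, *Mael* and *Tex101* had 0 reads in all 12 libraries, and the highest count of any of the 8 was 27 reads, for *Tdrkh*.

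Of 15 genes for the kinases that phosphorylate pocket proteins and for their inhibitors, 6 rose and 2 fell in *c-Myc* osteoblasts, with a median of 0.56. Of all tested genes 28.4% rose and 25% fell. Cyclin E1 (*Ccne1*), itself an E2F target, rose by 3.25 ± 0.350 (SE, edgeR adjusted p = 7.38e-06), and *Cdkn2a*, which encodes p16 and ARF, by 2.16 ± 0.683 (adjusted p = 0.0185). Gene counts do not separate p16 from ARF. The authors reported *Arf* as raised in *c-Myc* and further in *c-Myc* + *R172H* osteoblasts, with *p16* not evident. The genes that fell were the CDK inhibitor *Cdkn1c*, at -3.31 ± 0.391 (adjusted p = 2.05e-05), and *Ccnd3*, at -0.66 ± 0.148 (adjusted p = 0.00235) under TMM but at 0.18 under library totals. Of the 15, 9 were higher and 1 lower with library totals, where the median of all tested genes was 0.87.

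In *c-Myc* + *R172H* against juvenile osteoblasts 6 of these 15 genes were higher and 5 lower, near the 30.4% and 26.3% of all tested genes. *Cdkn2a* (3.66 ± 0.660) and *Ccne1* (3.10 ± 0.351) led the increases, *Cdkn1c* (-3.31 ± 0.390) and *Cdkn2d* (-1.11 ± 0.374) the decreases. With library totals *Cdkn2d* was at -0.052. Under that scaling 11 of the 15 were higher and 1 lower, where the median of all tested genes was 1.12. Between the ages 1 of 15 was higher and 1 lower in juvenile osteoblasts, *Cdkn1a* at 0.49 ± 0.137 (SE, edgeR adjusted p = 0.0476) and *Cdkn2c* at -1.23 ± 0.300 (adjusted p = 0.0257). With library totals *Cdkn1a* was at 0.24 (adjusted p = 0.337). Of the other pathway lists 0 genes passed between the ages by edgeR or DESeq2. Between *c-Myc* + *R172H* and *c-Myc* osteoblasts 0 pathway genes passed by edgeR, where 2 of the 15 kinase and inhibitor genes and 0 of the other genes had an unadjusted p below 0.05, and DESeq2 called 1, lower, among the 15.

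The known targets of the family had larger median changes than the family. All 35 G1/S targets, genes of origin licensing and DNA synthesis, rose from juvenile to *c-Myc* osteoblasts, beside 28.4% of all tested genes. Their median on the log2 scale was 2.73, beside 1.61 for the members. *Cdc6*, a licensing factor, rose by 3.64 ± 0.725 (SE, edgeR adjusted p = 0.00144) and *Mcm10* by 3.53 ± 0.245 (adjusted p = 1.87e-07). All 20 G2/M targets were higher too, with a median of 2.52, led by the spindle checkpoint gene *Bub1b* at 4.06 ± 0.151 (adjusted p = 6.34e-09) and *Ccnb1* at 3.40 ± 0.265 (adjusted p = 4.87e-07). Against juvenile osteoblasts the *c-Myc* + *R172H* group had 35 of 35 and 20 of 20 higher, with medians of 2.80 and 2.56. Of all tested genes 30.4% were higher there. DESeq2 called 34 of the 35 and 20 of the 20 higher in both comparisons. *Mki67*, itself on the G2/M list, was at 44.5, 40.9, 26.3 and 25.7 CPM in juvenile and at 165 and 169 CPM in *c-Myc* libraries. This marker of cycling cells thus moved with the members. In bulk samples more cells of a kind and more RNA per cell cannot be told apart.

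**Figure D5:**
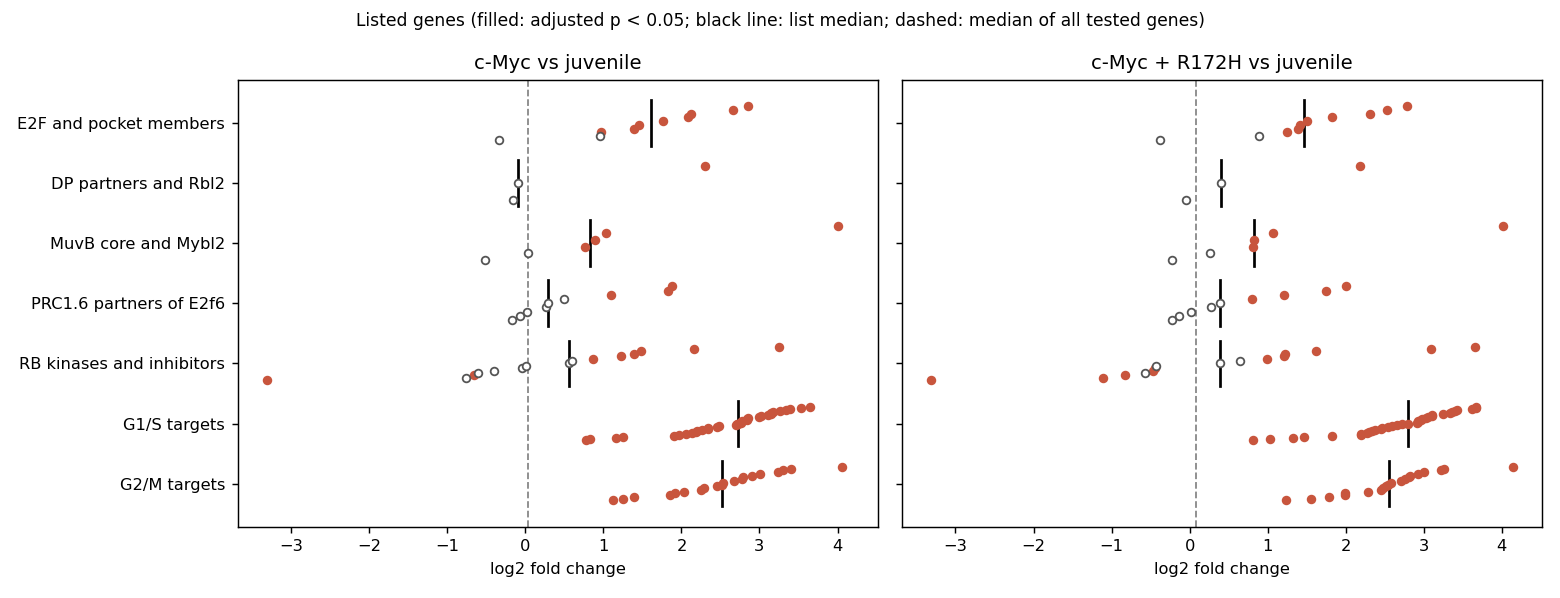
Log2 fold change (horizontal axis) of each tested gene of the members and of 6 pathway lists, in both comparisons with juvenile osteoblasts, with filled points for an adjusted p below 0.05, a black line at the list median and a dashed line at the median of all tested genes. The target lists have medians between 2.52 and 2.80 and every point filled, whereas the DP and *Rbl2* list has 1 filled point of 3.

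Likeness to other genes was measured as the root mean square difference between log2 CPM profiles over the 12 libraries, each centred on its mean, among 11570 genes. Nearest to *E2f1* were *Nme6* (0.228), *Ncs1* (0.271) and *Dtymk* (0.294), where the median gene was at 1.11. Nearest to *E2f6* were *Eif4b* (0.167), *Dhx33* (0.169) and *Uqcr10* (0.172), and nearest to *E2f8* were *Hnrnpa1* (0.155), *Dlat* (0.185) and *Anp32b* (0.192). *Rb1* had a closer neighbour than the other 3, *Rhoq* at 0.0801, followed by *Atf5* (0.134) and *Ube2j1* (0.142), where the median gene was at 0.599.

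Markers of other cells were read beside these results. Total counts per library were between 9066154 and 15684412. *Myc* was at 39.8 to 52.2 CPM in juvenile and at 624 to 748 CPM in the 4 libraries with the transgene. The 9 osteoblast markers took 49.5 to 58.0% of the reads in juvenile, 32.3 to 52.0% in adult, 13.9 to 16.9% in *c-Myc* and 8.97 to 9.17% in *c-Myc* + *R172H* libraries, and 9 of 9 were lower in both comparisons with juvenile osteoblasts, or 7 and 6 with library totals. The 9 chondrocyte markers took 0.588 to 2.01%, 2.80 to 11.1%, 0.0440 to 0.0756% and 0.0256 to 0.0264% in the same order, and 9 of 9 were lower as well, or 8 and 8 with library totals. The 6 marrow stroma markers summed to 281 to 376, 356 to 607, 113 to 191 and 88.0 to 112 CPM, with 4 of 6 lower and 1 higher in *c-Myc* than in juvenile osteoblasts, or 1 and 1 with library totals. The 7 osteoclast markers summed to 203 to 332, 222 to 411, 84.0 to 104 CPM and 52.3 CPM in both *c-Myc* + *R172H* libraries, but *Calcr*, *Ocstamp* and *Dcstamp* had 0 reads in every library. The 9 leukocyte markers summed to at most 13.9 CPM in any library, with *S100a8* and *Cd3e* at 0 throughout and *Lyz2* higher in *c-Myc* than in juvenile osteoblasts (4.23 ± 0.740, edgeR adjusted p = 0.000380), and the erythroid and endothelial markers to at most 0.994 and 1.54 CPM. The part of these markers and of *Mki67* in the fold changes of the members was not tested.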

How the data were processed

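The authors trimmed reads from a directional library kit (86-bp, single-end) with cutadapt 4.6, mapped the remainder to mm10 (STAR 2.7.11a) and used HTSeq-count 2.0.5 to count the uniquely mapped ones over genes. They deposited raw counts without normalization. The strand setting is not given in the sources used here.

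Libraries were grouped by their titles. Tests used edgeR 4.0.16 in R 4.3.3, after TMM scaling and filterByExpr at its defaults. Robust quasi-likelihood F tests were adjusted after Benjamini and Hochberg over all tested genes, with a threshold of 0.05. The age comparison used 8 libraries. The others came from 1 fit of all libraries but the adult ones. Standard errors were computed as the absolute change over the root of F. The sources used here do not state how mice were assigned to the libraries with the transgene. The 2 libraries of each such group differed in *Xist* and so did not come from the same mouse. P-values measure the spread between libraries. Replicates were compared, and every pair differed by more than sampling noise (chi-square of 5.45 to 136 for each degree of freedom). The procedure was tested on simulated data in which few genes were changed, as many raised as lowered. A shift over most genes was therefore not covered by that test. Alternatives were RLE, library totals, no filter, DESeq2 1.42.0, all 12 libraries, a replicate block, a fold rule and each library left out. A limit of 3 counts corresponded to 0.137 to 0.417 CPM, for counting error only. Profiles used a pseudocount of 0.5 CPM and genes with a mean of at least 1 CPM.

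The members, gene lists and tests were chosen with earlier results of these data known. All 10 members were named, and of each list up to 2 called genes that rose most and 2 that fell most. Other list members were named after their values were seen.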

Additional observations from a re-analysis of the deposited data

How the results depend on the processing

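In both comparisons with juvenile osteoblasts, 129 of the 130 log2 fold changes of the members under 13 alternatives kept their sign. 7 members were called higher in every alternative in *c-Myc* and 8 in *c-Myc* + *R172H* osteoblasts. The exception in sign was *Rb1*, at 0.51 and 0.68 with library totals. Between *c-Myc* + *R172H* and *c-Myc* osteoblasts 102 of 110 values kept their sign, and between the ages 116 of 140, with 0 calls. *E2f5* was called in 4 of the 13 alternatives in each comparison with juvenile osteoblasts, among them no filter (1.02 and 0.95, edgeR adjusted p = 0.0256 and 0.0387).

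Genes called higher and lower in juvenile against adult osteoblasts, 214 and 367, were 43 and 222 with the fold rule, 53 and 793 with library totals, 399 and 578 with no filter, 372 and 628 with DESeq2, 461 and 633 with all 12 libraries in the fit, and 85 to 344 and 199 to 541 with each library left out. For *c-Myc* against juvenile, 3577 and 3149, they were 2320 and 2010 with the fold rule, 6803 and 1115 with library totals, 2286 and 1969 without the libraries expressing *Xist* (chosen after seeing the data), and 2624 to 3761 and 2150 to 3337 with each library left out. For *c-Myc* + *R172H* against juvenile, 3832 and 3311, they were 2466 higher with the fold rule, 7668 and 1169 with library totals, 2331 and 2161 without the *Xist* libraries, and 2748 to 3998 and 2417 to 3476 with each library left out. Members called there were 8 to 9 higher and 0 to 1 lower with each library left out, the 1 being *Rb1* without juvenile replicate 1. For *c-Myc* + *R172H* against *c-Myc*, 1 and 58, they were 0 and 32 with the fold rule, 11 lower with library totals, 14 and 208 with no filter, 8 and 200 with DESeq2, 0 and 22 with all 12 libraries, 2 lower without the *Xist* libraries, and 0 to 1 and 7 to 54 with each library left out. Fewer libraries were fitted where one was left out, and otherwise the cause was not tested. A lone library was assumed to vary like the other groups.

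Other signs that turned belonged to values that were not called. Between the ages these were *E2f8* with RLE (-0.00074), *E2f2* (-0.086), *E2f4* (-0.14), *E2f6* (-0.083), *E2f8* (-0.23) and *Rb1* (-0.15) with library totals, and, with each library left out, *E2f1* (-0.33 to 0.23), *E2f2* (-0.015 to 0.33), *E2f3* (-0.18 to 0.023), *E2f4* (-0.086 to 0.20), *E2f6* (-0.0082 to 0.28), *E2f7* (-0.30 to 0.83), *E2f8* (-0.30 to 0.15) and *Rb1* (-0.052 to 0.30). Between *c-Myc* + *R172H* and *c-Myc* osteoblasts they were *E2f3* (0.20), *E2f5* (0.14), *E2f6* (0.17) and *Rb1* (0.17) with library totals, *E2f3* (0.042) without the *Xist* libraries, and, with each library left out, *E2f3* (-0.077 to 0.0050), *E2f5* (-0.27 to 0.058) and *E2f6* (-0.16 to 0.016).

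With the replicate number as a block, 9 members were called higher in both comparisons with juvenile osteoblasts. Without the block 8 were, beside 28.4% and 30.4% of all tested genes. The share of all genes called with the block is not given here for these comparisons. The member added was *E2f5*, at 0.90 and 0.83 (edgeR adjusted p = 0.0217 and 0.0315). In the other comparisons 0 members were called, and *E2f8* between the ages was at -0.042. In *c-Myc* + *R172H* against *c-Myc* osteoblasts 30 and 296 genes were called higher and lower with the block. Deviations of same-numbered libraries correlated at -0.066 to 0.048 with juvenile libraries involved and at 0.160 between the 2 groups with the transgene, where replicate 2 of both expressed *Xist* and replicate 1 of neither did. The labels name no shared litter, batch or day for a number. Members at a few CPM, *E2f7* above all, were limited by 4 to 45 reads per juvenile or adult library.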

Other observations

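Across the 8 juvenile and adult libraries, the log2 CPM of each member was set against that of *Mki67*, giving 10 relations tested by exact permutation, two-sided, with Benjamini-Hochberg adjustment. None passed the adjustment. *E2f7* had Pearson's r = 0.72 (exact permutation p = 0.0583, adjusted p = 0.485) and Spearman's rho = 0.81 (exact permutation p = 0.0218, adjusted p = 0.184), and r was 0.32 without juvenile replicate 1 and adult replicate 1. *Rb1* had r = -0.53 (exact permutation p = 0.183, adjusted p = 0.485) and rho = -0.76 (exact permutation p = 0.0368, adjusted p = 0.184), and r was -0.18 without these libraries. *E2f1* had r = 0.60 (exact permutation p = 0.123, adjusted p = 0.485) and rho = 0.64 (exact permutation p = 0.0962, adjusted p = 0.321), and r was 0.46 without them. Pearson's r of the first 2 relations was thus weaker without the 2 libraries with the highest *Mki67*, and rho was not recomputed. Leaving out the same libraries raised r for *E2f6* (0.42 to 0.79) and *Rbl1* (0.27 to 0.57). It lowered r for *E2f3* and *E2f4*, and made it negative for *E2f2* (-0.25), *E2f5* (-0.094) and *E2f8* (-0.48). Each age has 4 libraries, too few for a value within it. No member stood out as having 1 library far from the rest of its group by Dixon's criterion, in 0 of 20 groups of 4 tested.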
